A study of Mus musculus with 6 samples.

Results

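AP-1 is a family of dimeric transcription factors, and its genes were followed here in lung innate lymphoid cells (ILCs) with and without the RNA-binding protein RBM3. The genes were the 10 listed symbols Fos, Fosb, Fosl2, Jun, Junb, Jund, Batf, Batf3, Atf3 and Irf4, taken by symbol from a table of 14416 genes, and all 10 were found and passed the filter on low counts. RNA was measured by Smart-seq2 in 3 samples from Rbm3 knockout mice (RBM3KO) and 3 samples from wild-type mice (WT), all of strain C57BL/6J. All mice of both genotypes had received the mould allergen Alternaria alternata, 25 µg on 3 occasions within 7 days, so no unchallenged cells were compared. The sorted cells were Lin-Thy1.2+ ILCs of the lung, a gate that holds all ILC groups. The sources used here give neither the age or number of the mice, nor the part of Rbm3 that the allele lacks, nor whether each replicate is a separate animal. The p-values therefore rest on the spread among these 6 samples, part or all of which may be technical.

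AP-1 proteins share a basic region that contacts DNA and a leucine zipper that joins a pair of them. FOS proteins do not pair with each other and need a JUN partner, whereas JUN proteins can pair with one another. Many of these genes are immediate early genes, which are transcribed within minutes of a stimulus, and the handling and enzymatic digestion of a tissue can be such a stimulus. BATF and BATF3 are short AP-1 proteins that pair with JUN proteins and recruit interferon regulatory factors such as IRF4 to composite DNA sites. In mouse group 2 ILCs (ILC2s), BATF and IRF4 have been linked to the expression of type 2 cytokines.

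Levels are given as CPM, the usual scaling of counts to the normalised size of the library. The libraries held between 7498247 (RBM3KO replicate 3) and 25068137 (WT replicate 3) counts. Rbm3 had 26.5, 22.4 and 31.6 CPM in the RBM3KO libraries and 269.7, 314 and 293 CPM in the WT libraries, so every library matched its label. Of the sorting and lineage markers, Thy1 averaged 103 ± 7.17 CPM in RBM3KO and 104 ± 14.6 CPM in WT, and Gata3, the regulator of ILC2s, averaged 695 ± 141 CPM in RBM3KO and 640 ± 54.0 CPM in WT (SD, n = 3 each). Cd3e, a subunit of the T cell receptor complex, was detected in every library, between 15.7 and 32.8 CPM. Cd3g, another subunit, stood higher, between 144.6 and 312.5 CPM. Of the tested markers, 0 of 12 for ILCs, 0 of 7 for T cells, 0 of 7 for B cells, 1 of 9 for macrophages and monocytes (Tyrobp, lower), 1 of 7 for dendritic cells (Ccr7, lower), 0 of 3 for granulocytes and mast cells, 0 of 6 for epithelium, stroma and endothelium and 0 of 1 for erythroid cells and platelets passed edgeR's test between the genotypes. DESeq2 called 4 ILC markers higher and 2 B cell, 1 macrophage and 3 dendritic cell markers lower, and limma-voom called 1 ILC marker higher and 1 macrophage and 1 dendritic cell marker lower. Of the lists with 0 calls, 7 ILC markers and 1 T cell marker were higher and 2 B cell markers lower at an unadjusted p under 0.05 by edgeR, and 0 of the other 3 lists. At that unadjusted p 5.46% of all tested genes were higher and 6.87% lower, and edgeR's adjusted test called 1.25%. DESeq2 called 158 of 12409 genes higher and 276 lower, and limma-voom 52 of 11382 higher and 134 lower.

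Of the 10 genes, 1 fell in RBM3KO, Batf3, and 0 rose (edgeR's quasi-likelihood test, Benjamini-Hochberg adjusted p under 0.05 over 11382 tested genes). Over all tested genes 1.25% were called, 1.00% lower and 0.246% higher. The estimates of 8 genes lay above 0, between 0.19 and 0.49 on the log2 scale, and those of Jund and Batf3 lay below 0. The median log2 fold change of the 10 was 0.32, beside 0.01 over all tested genes, of which 50.9% were above 0. At an unadjusted p under 0.05, 6 of the 10 were higher and 2 lower, where 5.46% and 6.87% of all tested genes were, 12.3% in all. The libraries of the 2 genotypes did not overlap for 6 of the 10, beside 18.9% of all tested genes. Of these, 4 were higher in RBM3KO and 2 lower, beside 8.43% and 10.5%. DESeq2 called 0 higher and 1 lower, and limma-voom called 0.

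**Figure D1:**
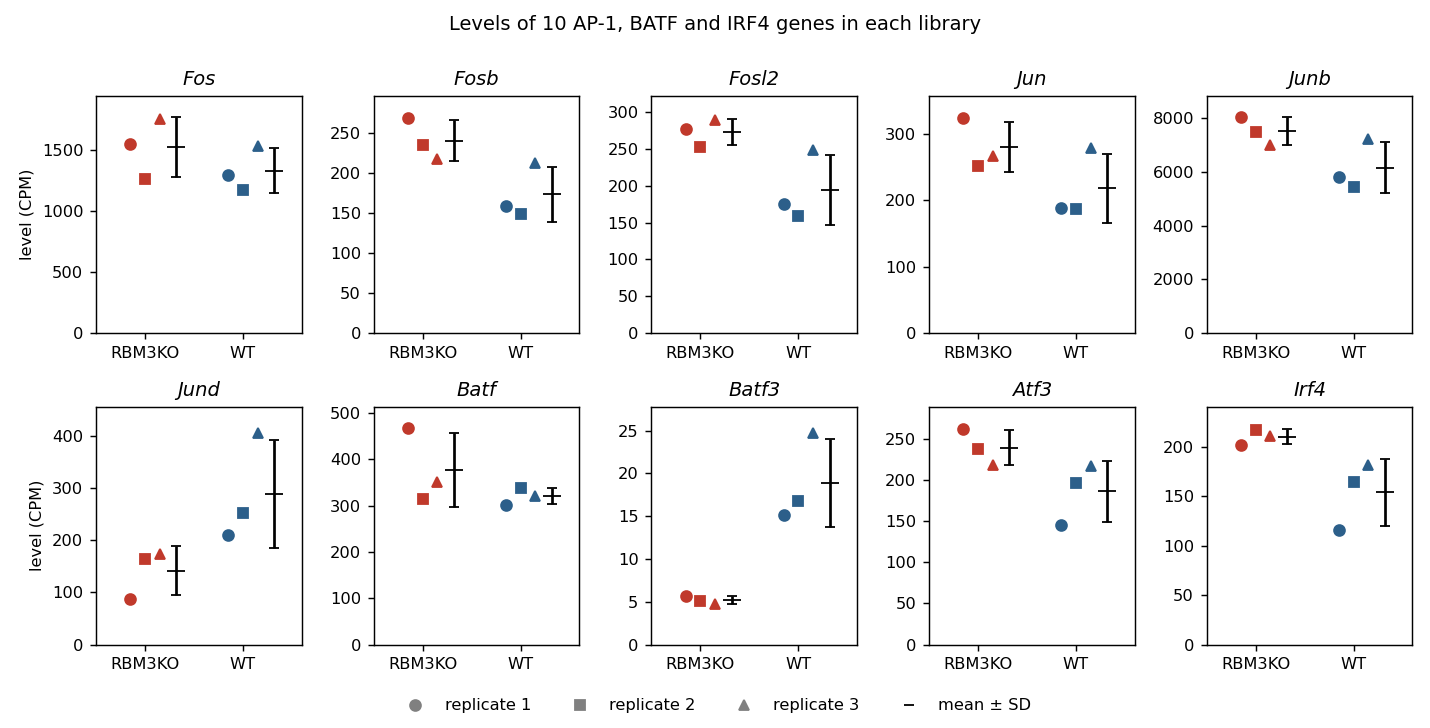
Level of each of the 10 genes in CPM (y axes from 0) in the 3 RBM3KO and the 3 WT libraries, with the replicate shown by the symbol and the mean ± SD in black. The genotypes do not overlap for Fosb, Fosl2, Atf3 and Irf4, which are higher in RBM3KO, nor for Jund and Batf3, which are lower, and WT replicate 3 is the highest WT library for every gene but Batf.

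Among the FOS genes, Fosb and Fosl2 had higher values in all RBM3KO than in all WT libraries, though neither passed the test, and Fos overlapped. Fos, the prototype of the family, stood at 1549, 1259 and 1750 CPM in RBM3KO and 1290, 1168 and 1528 CPM in WT. WT replicate 3 lay above RBM3KO replicate 2, and its log2 fold change of 0.19 did not pass (SE 0.13, edgeR adjusted p = 0.634). With 1 library left out the Fos estimate lay between 0.08, without RBM3KO replicate 3, and 0.31, without RBM3KO replicate 2. Fosb, whose product is induced alongside FOS, stood at 268, 235 and 218 CPM in RBM3KO and 159, 149 and 213 CPM in WT. The lowest RBM3KO library lay just above the highest WT library, and the estimate was 0.47 on the log2 scale (SE 0.15, edgeR adjusted p = 0.187). Fosl2, encoding FRA2, a longer-lived FOS protein, stood at 277, 253 and 288 CPM in RBM3KO and 176, 159 and 249 CPM in WT. Here too the genotypes did not overlap, by a narrow gap to WT replicate 3 (log2 fold change 0.49, SE 0.16, edgeR adjusted p = 0.1998). Without WT replicate 3 the Fosl2 estimate was 0.70 and passed the test (edgeR adjusted p = 0.0391), whereas without each other library in turn it did not.

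The JUN genes differed in the sign of their estimates: Jun and Junb lay above 0 and Jund below. Junb, a JUN protein of activated lymphocytes, stood at 8029, 7471 and 7004 CPM in RBM3KO and 5800, 5432 and 7227 CPM in WT. WT replicate 3 lay above RBM3KO replicate 3, and the estimate was 0.29 on the log2 scale (SE 0.10, edgeR adjusted p = 0.274). Jun, the prototype of this family, stood at 323, 251 and 267 CPM in RBM3KO and 188, 187 and 279 CPM in WT, again with overlap through WT replicate 3 (log2 fold change 0.36, SE 0.16, edgeR adjusted p = 0.404). Without WT replicate 3 the Jun estimate was 0.58. Jund, the JUN gene that is expressed most constantly and is least induced by growth stimuli, stood at 87.9, 164 and 174 CPM in RBM3KO and 209, 252 and 407 CPM in WT. The highest RBM3KO library lay below the lowest WT library, and the log2 fold change of -1.03 (SE 0.28, 95% interval -1.64 to -0.42) did not pass over all genes (edgeR adjusted p = 0.126). The difference between the estimates of Jund and Junb was not tested.

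Atf3, a stress-induced member that binds cyclic AMP response elements and can repress as a homodimer, stood at 262, 238 and 219 CPM in RBM3KO and 145, 196 and 217 CPM in WT. The genotypes did not overlap, with RBM3KO replicate 3 and WT replicate 3 nearly level, and the estimate was 0.36 on the log2 scale (SE 0.15, edgeR adjusted p = 0.349). It was 0.21 without WT replicate 1, the lowest library.

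Batf3 was the member that fell. It had 87, 86 and 35 counts in the RBM3KO libraries and 204, 286 and 631 counts in the WT libraries, which is 5.67, 5.13 and 4.71 CPM in RBM3KO and 15.1, 16.8 and 24.7 CPM in WT. The RBM3KO libraries lay close together, all below the lowest WT library. The log2 fold change was -1.86 (SE 0.37, 95% interval -2.68 to -1.05, edgeR adjusted p = 0.0393), a level 3.64 times lower in RBM3KO. In bulk samples, fewer cells that carry a transcript and less of it per cell cannot be told apart. Leaving out any 1 of the 6 libraries ended the call, with a log2 fold change of -1.62 or lower and an edgeR adjusted p from 0.0830 to 0.177, and it also ended with limma-voom (adjusted p = 0.0748), while DESeq2 kept it (adjusted p = 0.000895).

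Batf, its close relative, stood at 467, 313 and 352 CPM in RBM3KO and 302, 337 and 321 CPM in WT, with overlap. Its log2 fold change was 0.24 (SE 0.14, 95% interval -0.07 to 0.54, edgeR adjusted p = 0.552), and 0.05 without RBM3KO replicate 1, the highest library. Irf4, the partner of BATF-JUN pairs at composite sites, stood at 202, 217 and 211 CPM in RBM3KO and 116, 165 and 182 CPM in WT. All RBM3KO libraries lay above all WT libraries, with a coefficient of variation of 3.57% in RBM3KO and 22.1% in WT, and the estimate was 0.45 on the log2 scale (SE 0.15, edgeR adjusted p = 0.236). Without WT replicate 1, the lowest library, the estimate was 0.28.

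**Figure D2:**
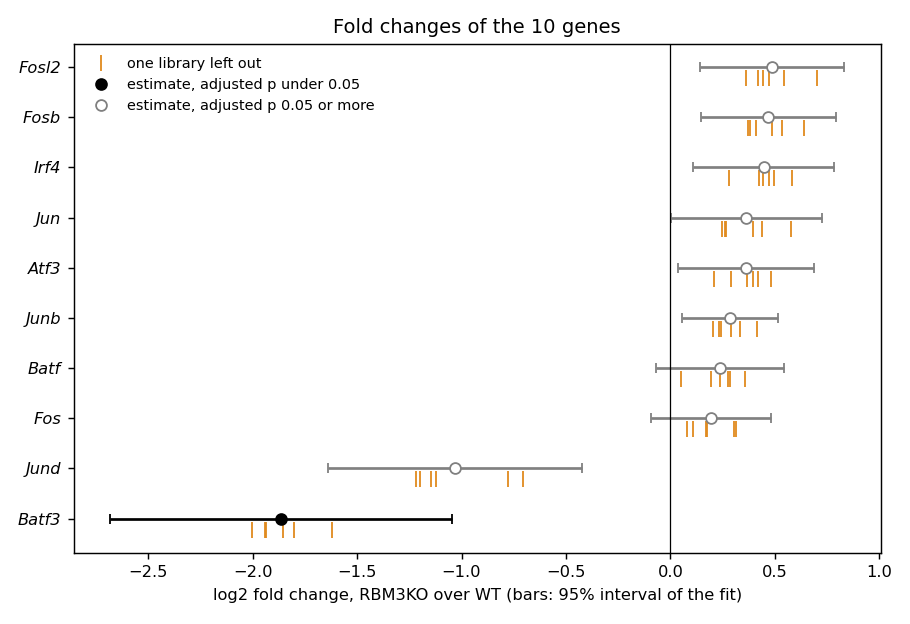
Log2 fold change of each gene, RBM3KO over WT (x axis), with the 95% interval of the edgeR fit and, in orange, the estimate with 1 library left out in turn. Batf3, at -1.86, is the filled point that passed the adjusted threshold, and the sign of every estimate stayed the same whichever library was left out.

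WT replicate 3 was the highest WT library for 9 of the 10 genes, Batf being the exception. In RBM3KO the highest library was replicate 1 for 6 genes, replicate 3 for 3 and replicate 2 for 1. The summed level of the 10, mostly Junb and Fos, was 11100, 10289 and 10392 CPM of the total count in RBM3KO. In WT it was 8521, 8191 and 10846 CPM, so WT replicate 3 lay within the range of RBM3KO for this sum. Without WT replicate 3, the numbers of genes that did not overlap were 6 higher, with Jun and Junb added, and 2 lower, beside 13.3% and 15.4% of all tested genes. Without RBM3KO replicate 2 they were also 6 higher, with Fos and Batf added, and 2 lower, beside 14.1% and 16.2%. Without RBM3KO replicate 3 they were 5 higher, with Junb added, and 2 lower, beside 14.3% and 15.8%. For each of the remaining libraries left out they were 4 higher and 2 lower, beside 12.4 to 14.0% and 14.1 to 15.7%.

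Corrected for transcript length, Junb was the most abundant of the 10 and Batf3 the least in both genotypes. Junb averaged 4147 ± 284 CPM per kilobase in RBM3KO and 3401 ± 524 CPM per kilobase in WT, and Fos, the next in order, 721 ± 117 in RBM3KO and 630.4 ± 87.0 in WT (SD, n = 3 each). Batf followed at 395 ± 83.6 CPM per kilobase in RBM3KO and 335 ± 18.5 in WT. Below Batf the order was Atf3, Jun, Jund, Fosb, Irf4, Fosl2 and Batf3 in RBM3KO, whereas in WT Jund stood before Atf3 and Jun. Jund averaged 85.2 ± 28.3 CPM per kilobase in RBM3KO and 173 ± 62.3 in WT. Neighbours whose libraries overlapped were Jun and Jund, Jund and Fosb, and Irf4 and Fosl2 in RBM3KO, and Atf3 and Jun, Irf4 and Fosl2, and Fosl2 and Batf3 in WT. With the length of all annotated exons in place of that of the transcript, Fosb and Irf4 changed places in both genotypes.

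**Figure D3:**
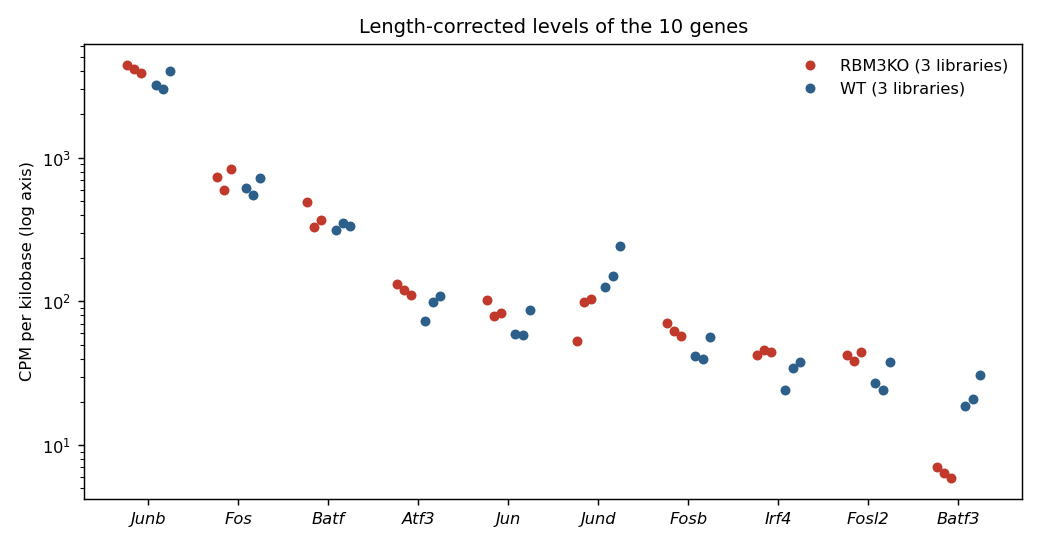
Length-corrected level of the 10 genes in CPM per kilobase of transcript (log axis) in each RBM3KO and WT library, ordered by the mean in RBM3KO. Junb stands at 3003 CPM per kilobase or higher in all 6 libraries, and Jund and Batf3 are the genes whose RBM3KO points lie below all WT points.

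Within each family 1 gene made up most of the length-corrected level. Junb held 96.6, 95.9 and 95.4% of the summed JUN family level in RBM3KO and 94.6, 93.5 and 92.3% in WT. Jund held 1.15, 2.28 and 2.57% in RBM3KO and 3.70, 4.70 and 5.64% in WT, so its share did not overlap between the genotypes. Fos held 86.6, 85.5 and 89.1% of the FOS family level in RBM3KO and 89.9, 89.7 and 88.5% in WT. Batf3 held 1.43, 1.92 and 1.57% of the summed Batf and Batf3 level in RBM3KO and 5.62, 5.61 and 8.40% in WT. These shares compare genes within a library, so they do not depend on the scaling between libraries, and they rest on the same counts as the fold changes above.

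The genes lie on several chromosomes of mm10, with some of them close neighbours. Fos (chromosome 12, 85473890 to 85477273) and Batf (chromosome 12, 85686669 to 85709087) share a region, as do Batf3 (chromosome 1, 191097847 to 191108945) and Atf3 (chromosome 1, 191170296 to 191218039). For Batf3 and Atf3 the estimates had opposite signs, -1.86 for Batf3 and 0.36 for Atf3. Jund (chromosome 8, 70698949 to 70700616) and Jun (chromosome 4, 95049034 to 95052222) have a single exon, and annotated antisense transcripts cover 877 of the 1668 bases of the Jund transcript and 232 of the 3189 bases of the Jun transcript. The Junb transcript also has 1 exon. Prdx2, on the opposite strand, overlaps 173 bases of all annotated Junb exons but 0 of this transcript. Smart-seq2 in its standard form does not mark strand, so reads of such pairs cannot be told apart and the Jund, Jun and Junb values are uncertain to that extent.

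The RefSeq promoter windows of the 10 genes (build GRCm38.p6, 250 bases before to 50 after the start) were searched for motifs on both strands. The motifs were the AP-1 site TGANTCA, the cyclic AMP response element TGACGTCA and its variants TGACNTCA and TGACGTTT. Also searched were the composite of an IRF site and an AP-1 site that BATF and IRF4 bind, a motif of a pair of GAAA repeats that IRF proteins bind and the CArG box of serum response factor. A match is to letters only, and binding in these cells was not measured. The 2 windows below hold the matches to the response-element variants, in capitals, 5′ to 3′ on the gene's strand. The Jun element, at bases -45 to -38 from the RefSeq start (chr4:95052249-95052278, minus strand), is the site known to be bound by JUN-ATF2 pairs, and the Batf match lies at bases -98 to -91 (chr12:85686611-85686640, plus strand).
Jun: aagcctcggggTGACATCAtgggctatttt
Batf: ttctaacttgtTGACGTTTccgcccatgtg
Of 32851 RefSeq promoter windows, 8.83% held TGACNTCA and 0.39% TGACGTTT. Fosl2 held the IRF motif, found in 3.44% of windows. The RefSeq start of Jund lies upstream of the gene start given above, so its window does not border the GENCODE gene. The windows of Batf3 (chr1:191098164-191098463), Atf3 (chr1:191183284-191183583) and Fosl2 (chr5:32136222-32136521) lie wholly inside the GENCODE genes, past their outermost annotated starts. A match, or its absence, therefore holds for the window at the RefSeq start only. The other 7 windows held no match to these letters, where TGANTCA stood in 7.81%, TGACGTCA in 1.79%, the composite in 0.125% and the CArG box in 1.63% of all windows.

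Fold change moved with the GC content of transcripts. The median log2 fold change was 0.07 for the 483 tested genes below 40% GC, -0.08 for the 458 genes between 60 and 65% and -0.40 for the 40 genes at 65% or above. Jund, at 67.1% GC, Batf3, at 62.8%, and Junb, at 62.6%, lay above 98% of tested genes in GC content. Their log2 fold changes were -1.03, -1.86 and 0.29. The other 7 lay between 47.6 and 56.6% GC. With the dependence on GC removed in each library, a setting added after the data were seen, the log2 fold change of Jund was -0.70 (edgeR adjusted p = 0.282) and that of Batf3 -1.69 (edgeR adjusted p = 0.0578), which ended its call. In the same fit Junb was called higher, at 0.45 (edgeR adjusted p = 0.0400).

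**Figure D4:**
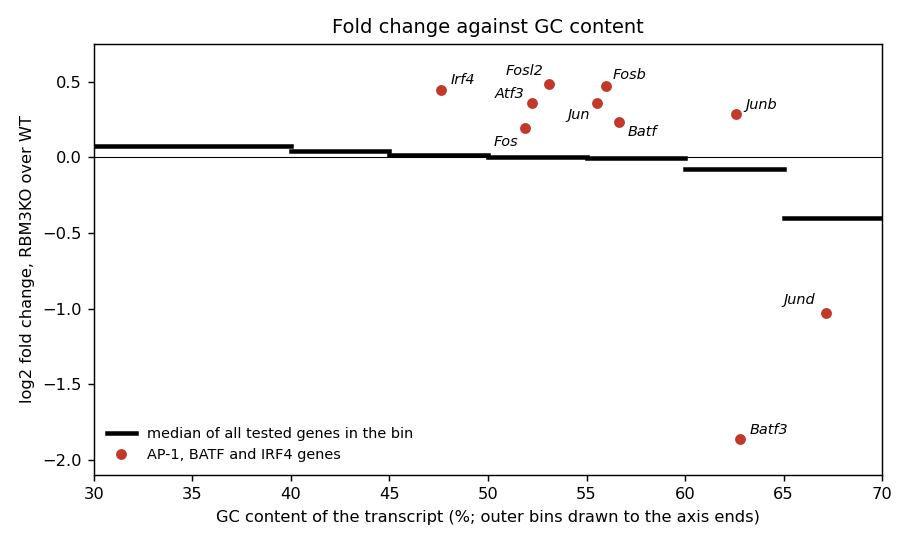
Log2 fold change, RBM3KO over WT (y axis), against the GC content of the transcript in percent (x axis) for the 10 genes (red), with the median of all tested genes in each GC bin (black lines, outer bins drawn to the ends of the axis). The bin medians run from 0.07 below 40% GC to -0.40 at 65% or above, and Jund and Batf3 lie below their bin while Junb lies above it.

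In mice Batf3 is needed for the type 1 conventional dendritic cells that cross-present antigen, so the levels of markers of other cells are given beside it. The Lin-Thy1.2+ gate is meant to remove cells that carry markers of other lineages, and the antibodies of the Lin gate are not named here. The summed level of the 10 dendritic cell markers in the table, mostly Cd74 and MHC class II genes, was 2691, 2731 and 2262 CPM of the total count in RBM3KO and 4332, 3189 and 2958 CPM in WT, with no overlap. Flt3, a receptor of dendritic cell precursors, had 0 counts in every RBM3KO library and 32, 24 and 3 counts in WT, and Siglech, a marker of plasmacytoid dendritic cells, 0 counts in every RBM3KO library and 9, 56 and 0 counts in WT. Xcr1, a defining marker of type 1 dendritic cells, went the other way, at 44.6, 44.5 and 26.5 CPM in RBM3KO and 21.2, 24.7 and 24.5 CPM in WT (log2 fold change 0.72, SE 0.26, edgeR adjusted p = 0.268), with no overlap. Zbtb46, a transcription factor of conventional dendritic cells, stood at 23.3, 9.61 and 14.8 CPM in RBM3KO and 8.94, 8.11 and 10.8 CPM in WT (log2 fold change 0.77, SE 0.40, edgeR adjusted p = 0.479), with overlap. The summed level of the 7 B cell markers was 42.6, 41.2 and 39.2 CPM in RBM3KO and 67.7, 88.1 and 91.3 CPM in WT, without overlap. The 11 macrophage and monocyte markers summed to 29.6, 85.0 and 90.7 CPM in RBM3KO and 69.9, 133 and 210.2 CPM in WT, with overlap. The 10 T cell markers, mostly Lat and Cd3g, summed to 539, 698.1 and 619.5 CPM in RBM3KO and 468, 579.2 and 552.5 CPM in WT, also with overlap. The part of such cells in the Batf3 result was not tested. The 12 ILC markers summed to 6891, 6628 and 6484 CPM in RBM3KO and 5305, 5353 and 5922 CPM in WT, without overlap and in the direction of the 8 members with estimates above 0, and their part in those values was not tested. These markers include ILC2 genes such as Gata3, Il5 and Il13. Il5, Il13 and Il2ra also stand on the list of NFAT and AP-1 targets below, so these lists are not independent. No list covered the other ILC groups of the gate, so the mix of ILC groups was not examined.

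Of 24 genes listed as other bZIP and IRF factors, 22 were tested and 0 passed edgeR's test, with a median log2 fold change of 0.07. At an unadjusted p under 0.05 by edgeR, 0 were higher and 2 lower, beside 5.46% and 6.87% of all tested genes. The genotypes did not overlap for 2 of the 22, 0 higher and 2 lower, beside 8.43% and 10.5%. DESeq2 called 1 lower and limma-voom called 0. Spi1 and Prdm1 on this list encode transcription factors that are neither bZIP nor IRF proteins. Irf8, the IRF partner of BATF3 in mouse dendritic cells, stood at 47.6, 32.2 and 38.2 CPM in RBM3KO and 65.7, 77.3 and 58.6 CPM in WT. All RBM3KO libraries lay below all WT libraries, and its estimate was -0.77 on the log2 scale (SE 0.21, edgeR adjusted p = 0.124). Mafg, a small MAF protein, had a log2 fold change of -1.32 (SE 0.41, edgeR adjusted p = 0.185) and Crem, a cyclic AMP-responsive factor, 0.43 (SE 0.21, edgeR adjusted p = 0.442).

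Of the 26 kinases, phosphatases and serum response factors that act upstream of AP-1, all were tested and 0 passed edgeR's test. Their median log2 fold change was 0.08. At an unadjusted p under 0.05 by edgeR, 3 were higher and 3 lower, beside 5.46% and 6.87% of all tested genes. The genotypes did not overlap for 11 of the 26, 6 higher and 5 lower, beside 8.43% and 10.5%. DESeq2 called 1 higher and 1 lower, and limma-voom called 1 higher. Map3k8, the kinase TPL2 that feeds the ERK pathway, stood at 435, 407 and 294 CPM in RBM3KO and 239, 226 and 263 CPM in WT (log2 fold change 0.64, SE 0.14, edgeR adjusted p = 0.0602). It did not overlap between the genotypes and is the member that limma-voom called (adjusted p = 0.0339). Mapk3, encoding ERK1, had a log2 fold change of -0.72 (SE 0.20, edgeR adjusted p = 0.134), and Dusp5, an ERK phosphatase, -0.39 (SE 0.12, edgeR adjusted p = 0.179).

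Of 12 textbook targets of NFAT and AP-1 in lymphocytes, 11 were tested, 1 fell and 10 did not pass, with a median log2 fold change of 0.29. At an unadjusted p under 0.05 by edgeR, 6 of the 11 were higher and 1 lower, beside 5.46% and 6.87% of all tested genes. Il5 and Il13 were among the 6, and both also count among the ILC markers that were higher. Fasl, a death ligand, fell to 5.48, 3.40 and 4.44 CPM in RBM3KO, against 13.6, 28.0 and 16.4 CPM in WT (log2 fold change -2.12, SE 0.42, edgeR adjusted p = 0.0393), a call lost when any 1 library was left out, with limma-voom and with the replicate block (edgeR adjusted p = 0.0749). Il5, the cytokine that drives eosinophils, had a log2 fold change of 0.48 (SE 0.11, edgeR adjusted p = 0.0602), and Il4, a cytokine of type 2 immunity, 1.04 (SE 0.26, edgeR adjusted p = 0.106). DESeq2 called both higher, and limma-voom called Il5.

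**Figure D5:**
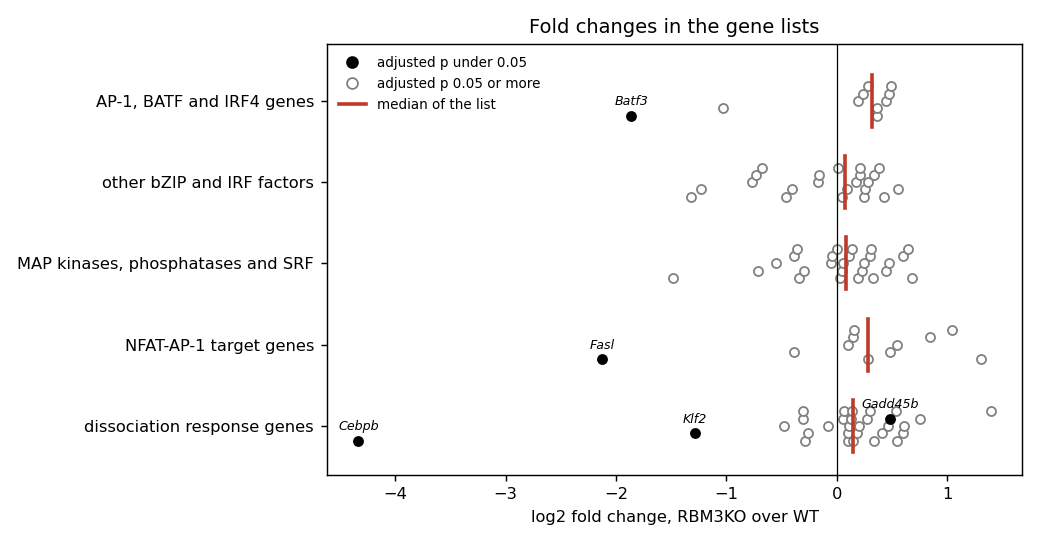
Log2 fold change, RBM3KO over WT (x axis), of each tested gene in the AP-1, BATF and IRF4 set and in the 4 pathway lists, with filled points for an adjusted p under 0.05 and a red line at each list's median. The medians lie between 0.07 and 0.32, and the named points are the genes past the threshold.

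The response of cells to tissue dissociation was followed through 30 other immediate early and heat shock genes, all of them tested, of which 1 rose, 2 fell and 27 did not pass, with a median log2 fold change of 0.14. At an unadjusted p under 0.05 by edgeR, 7 of the 30 were higher and 3 lower, beside 5.46% and 6.87% of all tested genes. Gadd45b, a stress-induced signalling protein, rose to 1446, 1553 and 1548 CPM in RBM3KO, against 1027, 999.8 and 1230 CPM in WT (log2 fold change 0.48, SE 0.09, edgeR adjusted p = 0.0393). Klf2, a quiescence factor of lymphocytes, fell to 27.5, 21.0 and 24.1 CPM in RBM3KO, against 51.1, 61.4 and 64.3 CPM in WT (log2 fold change -1.29, SE 0.21, edgeR adjusted p = 0.0173). For both genes the genotypes did not overlap. Cebpb, a C/EBP factor, fell to 11, 24 and 67 counts in RBM3KO, against 547, 720 and 3011 counts in WT (log2 fold change -4.33, SE 0.84, edgeR adjusted p = 0.0441). The Gadd45b call was lost when any library but WT replicate 3 was left out, the Klf2 call without each WT library and without RBM3KO replicate 2, and the Cebpb call without each library except RBM3KO replicate 3, with estimates from -5.94 without RBM3KO replicate 3 to -3.58 without WT replicate 3. Gadd45b also lost its call when only library size was used for scaling, and Cebpb without a filter, with a filter of 10 CPM in 3 libraries, with limma-voom and after the GC correction. The summed level of the 30, mostly Nfkbia, Nr4a1, Hspa8, Dusp1 and Gadd45b, was 17998, 16589 and 16649 CPM of the total count in RBM3KO. In WT it was 14061, 13239 and 17092 CPM. WT replicate 3 was thus again high among WT and within the range of RBM3KO, as for the AP-1 sum. Dusp1 is also on the list of kinases and phosphatases. Hspa1a, a heat shock gene, stood at 48.1, 12.8 and 38.2 CPM in RBM3KO and 9.76, 21.5 and 36.5 CPM in WT, with overlap. Its log2 fold change of 0.54 was the highest of the listed heat shock genes. Hspe1, at -0.30 and without overlap, and Hspa8, at -0.08, lay below 0. Hsp90aa1, Dnajb1, Dnaja1, Hspa1b and Hspb1 lay between 0.06 and 0.40, with overlap. The part of such a response in the AP-1 values was not tested.

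By the likeness of profiles over the 6 libraries, the closest genes to Fos among 7607 others with a mean of at least 10 CPM were Peli1, Bcas3 and Isy1, with a root mean square difference in centred log2 CPM of 0.03, 0.06 and 0.06. Those closest to Batf were Tmub1, Ctsz and Slc44a2, at 0.04, 0.05 and 0.06. Over all these genes the median difference was 0.33 for both. A gene with a flat profile would differ by 0.20 from Fos and by 0.21 from Batf, which is below that median. Whether neighbours this close would arise by chance among 7607 genes and 6 libraries was not tested.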

How the data were processed

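The values are raw counts, deposited by the authors in 1 table with a row for each gene symbol and 1 column for each of the 6 samples (columns of other samples: 0). Per the labels' protocols, polyA RNA was made into cDNA by Smart-seq2 and libraries by Nextera XT. The submitters' processing notes list the tools STAR 2.6.1c, featureCounts 1.6.5 and Bowtie 1.0.0 and the build mm10, with no role or order, while the annotation and the strand setting were not given in the sources used here. PCR copies are counted, since the standard protocol carries no molecular identifiers.

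Genes were filtered by edgeR's filterByExpr, which left 11382 genes with 99.9% of the counts, scaled by TMM and compared between 3 RBM3KO and 3 WT samples by edgeR's robust quasi-likelihood test (edgeR 4.0.16, R 4.3.3), adjusted over all tested genes (Benjamini-Hochberg, threshold 0.05). CPM are TMM-normalised unless given as CPM of the total count. Log2 fold changes are RBM3KO minus WT, and the SE is the fold change's size divided by the square root of F. The fits were tested on simulated counts with 200 changed genes. The floor for a gene at 0 is 3 counts per library, or 0.120 to 0.400 CPM, for counting error only. An exact permutation test of 3 against 3 cannot go below p = 0.1, so none was used. No pair of libraries agreed within sampling noise (lowest chi-square per degree of freedom 21.5).

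Lengths, GC content and coordinates came from GENCODE M21, the mm10 assembly, from the basic-set transcript whose coding sequence is longest. Symbols matched for 98.8% of genes. Promoters came from RefSeq, for all 10 genes.

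The members and lists were chosen with earlier results of these data known. Named were the 10 members, from each pathway list every gene past the threshold and the 3 with the smallest p, the 3 genes most like Fos and Batf, markers that move with a member, and Rbm3. Hspa1a, the other heat shock genes and the genes that make up most of a summed level were named after their values were seen. The alternatives were another scaling, filter, tool or fit, the replicate block, each library left out and, added after seeing the data, a GC correction (lowess, span 0.3). DESeq2 1.42.0 and limma 3.58.1 were used for these.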

Additional observations from a re-analysis of the deposited data

How the results depend on the processing

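None of the 10 members changed the sign of its estimate under the 15 alternatives. Of 150 member results under them, 138 kept their side of the threshold, 9 lost a call (all Batf3) and 3 gained one (Fosl2 without WT replicate 3, Jund with the replicate block, Junb after the GC correction). Batf3 was thus not called with limma-voom (0 members called), the replicate block, the GC correction or any library left out (0 to 1 members called), and the cause was not tested. Over all genes 142 were called, 434 by DESeq2 and 12 to 99 with a library left out, where each fit had fewer samples. The 12 came without WT replicate 1. Of the genes called by DESeq2, 36.4% were higher in RBM3KO, against 19.7% of the genes called in the edgeR fit. The list of other bZIP and IRF factors had 1 call by DESeq2 and 0 with each library left out. The kinase and phosphatase list had 1 call with no filter, 1 at 10 CPM in 3 libraries, 2 by DESeq2, 1 by limma-voom and 0 to 1 with a library left out. The NFAT and AP-1 targets had 2 calls with no filter, 2 at 10 CPM in 3 libraries, 3 by DESeq2, 0 with the replicate block and 0 to 1 with a library left out. The dissociation list had 5 by DESeq2 and 0 to 2 with a library left out. With the length of all exons, Junb held 94.9% of the JUN family level in RBM3KO and 91.8% in WT, and Fos 90.5% of the FOS family level in RBM3KO and 92.2% in WT.

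The replicate numbers are not said to pair the samples. The deviations of same-numbered libraries from their group means had correlations of 0.06, 0.06 and 0.01 over genes. Replicates 1 and 2 correlated best with their own number, and replicate 3 did not. With the replicate block 149 genes were called, 1 of the 10 members among them, Jund (log2 fold change -1.03, edgeR adjusted p = 0.0144), and Batf3 had an edgeR adjusted p = 0.0732.

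Batf3 had the fewest counts of the 10 members, 35 to 87 in the RBM3KO libraries and 204 to 631 in the WT libraries, with a coefficient of variation of 9.34% in RBM3KO and 27.2% in WT.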
